A study of Rattus norvegicus with 14 samples.

Results

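The cytosolic sulfotransferases described here are the products of Sult1c3, Sult2a6, Sult1a1, Sult1b1 and Sult1e1, measured in rat liver after a vitamin A-deficient or a vitamin A-sufficient diet. Every probe set whose platform gene symbol is, or includes, 1 of these 5 genes was taken, which gave 13 of the 8740 probe sets on the array, for 5 of the 5147 gene symbols it carries. The 5 genes were chosen with their measured difference between the diets known, so for them that difference is described and not tested. The animals were 74-day-old male rats, and both groups had been fed their diet for 53 days. Strain, housing and the retinoid level of the livers are not given in the labels used here. Each diet had 7 arrays. Of these, 4 (numbers 1 to 4) were prepared from roughly 10 µg of total RNA and 3 (numbers 1, 2 and 4) from roughly 2 µg. The mean shift between the RNA amounts was removed, arrays that share a diet and a number were averaged, and each average is called an animal below, so n = 4 deficient and 4 sufficient animals. Animal 3 of either diet has a 10 µg array and no other. It is not stated in the labels that arrays of 1 number share a liver, nor that different numbers are separate animals, so the errors below measure the spread between these averages.

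Cytosolic sulfotransferases move a sulfonate group from the donor PAPS (3′-phosphoadenosine 5′-phosphosulfate) to hormones, bile acids, phenols and foreign compounds, which makes most of them more soluble in water and less active. The donor is made from inorganic sulfate by the PAPS synthases, and the hepatocyte is the main liver cell in which these reactions take place. In the rat several hepatic sulfotransferases differ between the sexes. Sult1c3, long known as ST1C1, and the estrogen sulfotransferase Sult1e1 are higher in males, and the hydroxysteroid sulfotransferases of the Sult2a group are higher in females.

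Values are given as scaled intensity, the deposited intensity rescaled so that the trimmed mean of each array is 500, and differences as deficient minus sufficient on the log2(scaled intensity + 16) scale, which understates the change of dim probe sets. The level of 1 probe set is not comparable with that of another. A probe set was tested if its mean reached the 40th percentile of all, which left 5244, and was called if its Benjamini-Hochberg adjusted p in limma was under 0.05. Of the 13 sulfotransferase probe sets 12 reached that level. Hepatocyte markers were bright in all animals, with a summed scaled intensity of 174990 to 212039 in deficient and 152276 to 198077 in sufficient livers, and 0 of the 7 tested passed by diet in limma, against 1 when the 14 arrays were fitted with each diet and number as a random replicate block (Apoa1, 0.59, adjusted p = 0.0315). That block used 1 correlation, 0.363, between arrays of the same diet and number for all probe sets. For a probe set whose paired arrays lie closer than that, its errors are too small. A pass with the block alone is therefore a weaker result than a pass over the averaged animals. In whole liver, fewer cells of a type and less RNA per cell cannot be told apart.

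Of the 5 genes, Sult2a6 and Sult1c3 had the largest differences between the diets, in opposite directions. The promoter of Sult2a6 is shown with those of its relatives Sult2a1 and Sult2a2, because several probe sets cannot separate these genes, and the promoter of Sult1c3 is shown for contrast. Each is the RefSeq sequence of build GRCr8, 250 bases before the annotated start and 50 from it, read 5′ to 3′ on the gene's strand. Capitals mark an inverted repeat with no spacer (IR0), made of 2 nuclear receptor core motifs (AGGTCA or GGGTCA or AGTTCA or GGTTCA), the second of them on the opposite strand, and a promoter with no capitals holds no such repeat in this window. The promoters lie on the minus strand at chr1:84097759-84098058 (Sult2a6), chr1:84638898-84639197 (Sult2a1), chr1:85104483-85104782 (Sult2a2) and chr9:7594207-7594506 (Sult1c3).
Sult2a6: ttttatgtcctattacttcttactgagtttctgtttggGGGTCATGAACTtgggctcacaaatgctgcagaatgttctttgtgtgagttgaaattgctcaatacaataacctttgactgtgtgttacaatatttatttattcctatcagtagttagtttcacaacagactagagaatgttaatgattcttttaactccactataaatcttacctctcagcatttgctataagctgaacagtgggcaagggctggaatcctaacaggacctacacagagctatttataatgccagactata
Sult2a1: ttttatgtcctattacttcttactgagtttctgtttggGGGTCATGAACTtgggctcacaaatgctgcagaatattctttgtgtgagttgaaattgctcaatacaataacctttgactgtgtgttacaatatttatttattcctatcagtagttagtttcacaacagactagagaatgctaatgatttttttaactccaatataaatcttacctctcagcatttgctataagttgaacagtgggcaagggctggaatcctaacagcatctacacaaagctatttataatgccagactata
Sult2a2: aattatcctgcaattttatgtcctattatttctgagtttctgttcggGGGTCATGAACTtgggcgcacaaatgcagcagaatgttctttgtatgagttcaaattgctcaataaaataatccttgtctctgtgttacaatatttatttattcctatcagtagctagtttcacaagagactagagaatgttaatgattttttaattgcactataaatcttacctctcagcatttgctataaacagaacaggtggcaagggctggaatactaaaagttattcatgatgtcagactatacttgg
Sult1c3: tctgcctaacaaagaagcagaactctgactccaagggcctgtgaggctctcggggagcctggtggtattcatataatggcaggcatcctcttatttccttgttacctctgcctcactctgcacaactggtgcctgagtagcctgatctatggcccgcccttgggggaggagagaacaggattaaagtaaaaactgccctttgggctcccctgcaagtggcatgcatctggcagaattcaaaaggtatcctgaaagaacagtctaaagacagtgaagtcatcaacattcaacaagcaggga

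The promoters of Sult2a6 and Sult2a1 were identical at 292 of 300 bases (97.3%). Over 282 aligned bases, that of Sult2a2 matched Sult2a6 at 257 (91.1%) and Sult2a1 at 254 (90.1%). All 3 held the same repeat, GGGTCATGAACT, at bases -212 to -201 from the annotated start base (counted as 0) in Sult2a6 and Sult2a1 and at -203 to -192 in Sult2a2. A repeat of this form occurred in 17 of 33469 rat promoters of the same length (0.0508%), and these 3 are among them. Because the 3 promoters are so alike, they do not count as separate matches against that share. In rodents an inverted repeat of this kind in Sult2a promoters is known as a binding site for nuclear receptors that pair with the retinoid X receptor, among them the bile acid receptor FXR. The 300-base windows of Sult1c3, Sult1a1, Sult1b1 and Sult1e1 held no such repeat. Single core motifs, on either strand, were found in 44.4% of all promoters, and besides the Sult2a genes they were present in Sult1b1 and Sult1e1. Direct repeats of the core motif, on either strand, with spacers of 1 to 5 bases, the form known for retinoic acid and related receptors, were absent from all 7 windows and present in 0.233%, 0.17%, 0.0986%, 0.0807% and 0.382% of promoters for the spacers in that order. The STAT5 motif TTCNNNGAA was also absent from the 7 windows, against 8.87% of all promoters. A match or its absence in so short a window describes the sequence alone.

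Sult1c3 was lower in every deficient animal than in any sufficient one, by 2.36-fold on its brighter probe set. The enzyme activates N-hydroxy arylamines in the rat. The brighter of its 2 probe sets (L22339_g_at) had scaled intensities of 2151, 2056, 2838 and 2284 in deficient animals 1 to 4, against 6156, 5628, 6320 and 4112 in sufficient animals 1 to 4. Sufficient animal 4 was the lowest of its diet. The log2 level averaged 11.19 ± 0.20 in deficient and 12.42 ± 0.28 in sufficient animals (SD, n = 4 each), a difference of -1.24 (SE 0.155, 95% interval -1.58 to -0.90). The dimmer probe set of the gene (L22339_at) read 76.5, 63.2, 95.3 and 83.1 in deficient animals, against 252, 286, 283 and 157 in sufficient animals. Its groups did not overlap either, and the difference was -1.43 (SE 0.202, 95% interval -1.87 to -0.98), or 2.69-fold. Before averaging, the 7 deficient arrays of the brighter probe set ran from 2067 to 2838 with a median of 2311. The 7 sufficient arrays ran from 3739 to 6588 with a median of 6320. These are the arrays behind the animal values and add no further animals.

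Sult2a6 moved the other way. It encodes a hydroxysteroid sulfotransferase of the group that conjugates bile acids and dehydroepiandrosterone. Its brightest probe set (X63410cds_f_at) read 4330, 6073, 5070 and 5010 in deficient animals, against 2131, 1920, 2266 and 2132 in sufficient animals. The lowest deficient animal was well above the highest sufficient one. The log2 level averaged 12.32 ± 0.20 in deficient and 11.05 ± 0.10 in sufficient animals (SD, n = 4 each), a difference of 1.26 (SE 0.120, 95% interval 1.00 to 1.53), or 2.40-fold higher. The probe sets M33329_f_at and rc_AA945050_f_at, annotated to the same gene alone, gave 1.20 (SE 0.123, 2.30-fold) and 1.18 (SE 0.161, 2.27-fold). For M33329_f_at the deficient animals read 2766, 3728, 3204 and 3411, against 1336, 1262, 1538 and 1515 in sufficient animals. For rc_AA945050_f_at they read 1370, 1883, 1939 and 1941, against 827, 805, 889 and 592. The 3 probe sets therefore gave similar sizes, and none of them had overlapping animals or overlapping arrays. All 3 carry the suffix _f_, for probe sets shared within a gene family, so they may not be separate readings of Sult2a6 alone.

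**Figure D1:**
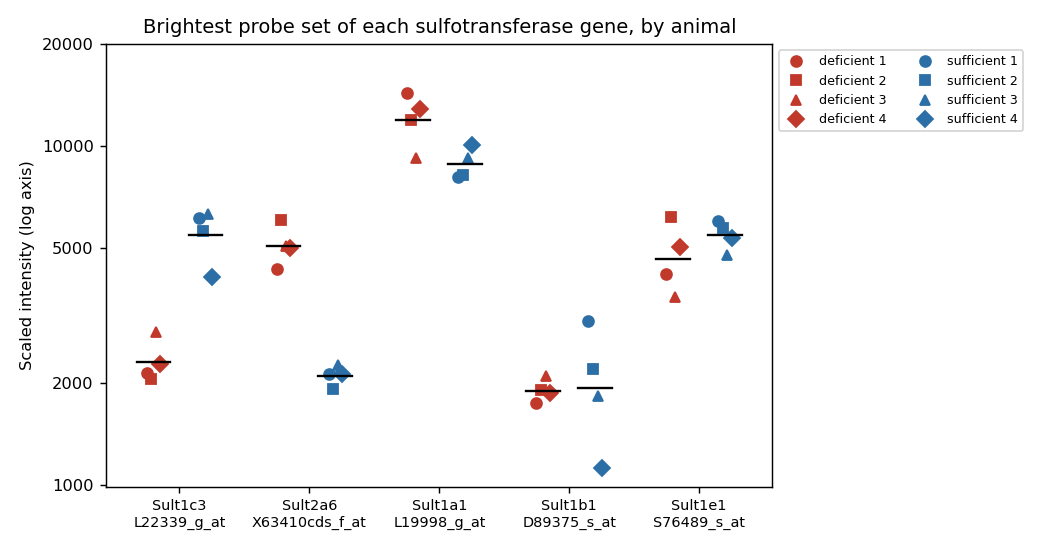
Scaled intensity (log axis) of the brightest probe set of each of the 5 sulfotransferase genes in 4 deficient and 4 sufficient animals, 1 point per animal. Sult2a6 lay between 4330 and 6073 in deficient and between 1920 and 2266 in sufficient animals, Sult1c3 lay lower in every deficient animal, and the other genes overlapped.

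Probe sets shared by Sult2a1 and Sult2a6 showed a smaller and less even difference. M31363mRNA_f_at read 1173, 1555, 1507 and 1168 in deficient animals, against 690, 775, 832 and 1512 in sufficient animals. Sufficient animal 4 thus stood at the level of the deficient animals while the other sufficient animals lay below all of them. The difference was 0.55 (SE 0.222, 95% interval 0.07 to 1.04, 1.47-fold). Without sufficient animal 4 it was 0.80 and the probe set was called, and without any other single animal it was 0.43 to 0.62 and not called. That call is no test, because the gene was chosen on this contrast and the animal left out is the one that stood apart. rc_AA817987_f_at read 924, 1284, 1172 and 788 in deficient animals, against 447, 623, 795 and 1183 in sufficient animals, a difference of 0.50 (SE 0.261, 95% interval -0.07 to 1.08), and again sufficient animal 4 was the highest of its diet. Both arrays of sufficient animal 4 were high in M31363mRNA_f_at, at 1552 for 2 µg and 1534 for 10 µg. The remaining shared probe set, rc_AI028836_at, was too dim to be tested, with log2 means of 4.93 ± 0.28 in deficient and 5.20 ± 0.49 in sufficient animals (SD, n = 4 each) where an intensity of 0 reads 4.

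Sult2a1 and Sult2a2, hydroxysteroid sulfotransferases that neighbour Sult2a6 on chromosome 1, were not among the chosen genes. Their probe sets with the suffix _f_ may also take up Sult2a6, which was chosen on this contrast. The p-values of those probe sets are therefore not a separate test. Between Sult2a6 and Sult2a1 the RefSeq table places 5 other gene starts, 1 of a protein-coding gene, and between Sult2a1 and Sult2a2 1, of no protein-coding gene. The brightest Sult2a1 probe set (D14988_f_at) read 3567, 4430, 4126 and 3369 in deficient animals, against 1553, 1707, 2560 and 3220 in sufficient animals. Its difference of 0.83 (SE 0.212) did not pass in limma (adjusted p = 0.0863), and it did pass with the random replicate block, at 0.84 (adjusted p = 0.0114). It ran from 0.67 to 1.02 when 1 animal was left out and passed in 1 of those 8 fits, without sufficient animal 4 (limma adjusted p = 0.0198). The brightest Sult2a2 probe set (rc_AI169695_f_at) read 826, 1050, 1018 and 925 in deficient animals, against 346, 377, 675 and 672 in sufficient animals. Its difference was 0.92 (SE 0.218, limma adjusted p = 0.0642), and 0.95 with the block (adjusted p = 0.00526). It ran from 0.76 to 1.07 when 1 animal was left out and passed in 1 of those 8 fits, without sufficient animal 4 (limma adjusted p = 0.0409).

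The other probe sets of these relatives differed by 0.77 for D14987_f_at (Sult2a1, adjusted p = 0.120), 0.61 for rc_AA818122_f_at (Sult2a1, adjusted p = 0.267) and 0.77 for D14989_f_at (Sult2a2, adjusted p = 0.160) in limma, and of these D14987_f_at passed with the block at 0.79 (adjusted p = 0.0157). A dimmer Sult2a2 probe set without the family suffix, rc_AA945589_at, pointed the other way at -0.33 (SE 0.242, limma adjusted p = 0.601), so the probe sets of Sult2a2 disagreed. The suffix _f_ marks probe sets that the array's makers designed as shared within a gene family, and given the likeness of these genes the gene behind each such value is uncertain. The 3 probe sets annotated to Sult2a6 alone spread over 0.24 to 0.57 log2 units among the sufficient animals. The shared probe sets M31363mRNA_f_at and rc_AA817987_f_at spread over 1.11 and 1.37 units, and the tested probe sets of Sult2a1 or Sult2a2 over 0.93 to 1.19. Among the deficient animals the spreads were closer to each other. They were 0.43 to 0.50 for Sult2a6 alone, 0.41 and 0.69 for the shared probe sets, and 0.25 to 0.63 for Sult2a1 or Sult2a2.

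**Figure D2:**
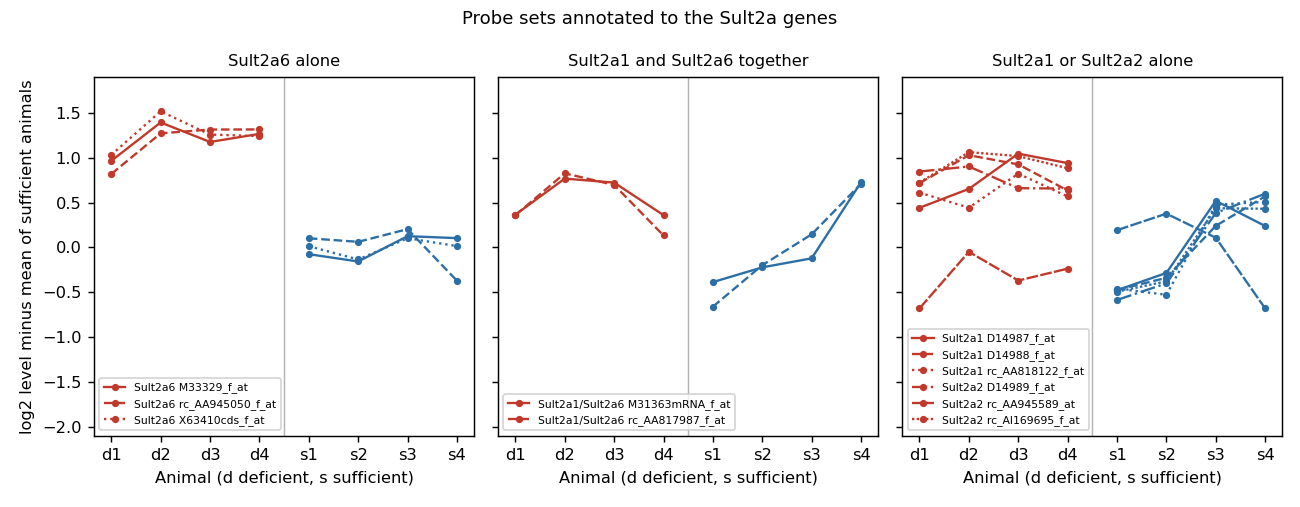
Log2 level of each Sult2a probe set minus its mean in sufficient animals, for 4 deficient and 4 sufficient animals, in panels for probe sets annotated to Sult2a6 alone, to Sult2a1 and Sult2a6 together, and to Sult2a1 or Sult2a2 alone. In the first panel the diets separate in every line, and in the middle panel sufficient animal 4 reaches the level of the deficient animals.

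Sult1a1, Sult1b1 and Sult1e1 had animals that overlapped between the diets, with Sult1a1 the furthest apart. Sult1a1, the main phenol sulfotransferase of the liver, read 14327, 11931, 9205 and 12865 on L19998_g_at in deficient animals, against 8109, 8220, 9210 and 10093 in sufficient animals. In 3 of the 4 deficient animals it was above every sufficient animal, and deficient animal 3 was level with sufficient animal 3. The difference was 0.43 (SE 0.138, 95% interval 0.12 to 0.73), or 1.34-fold. This probe set was called with the random replicate block (0.46, SE 0.118) and not without it. Sult1a1 was among the genes chosen on this contrast, so that call is no test of it. Its other probe set, L19998_at, gave 0.26 (SE 0.159, 95% interval -0.09 to 0.61), with 5236, 3470, 3485 and 4971 in deficient animals, against 3247, 3402, 4213 and 3277 in sufficient animals.

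Sult1b1, which acts on thyroid hormones and on dopa and tyrosine, differed between the diets in its spread more than in its mean. D89375_s_at read 1746, 1914, 2098 and 1874 in deficient animals, against 3049, 2204, 1831 and 1127 in sufficient animals. The SD of the log2 level was 0.11 in deficient and 0.59 in sufficient animals, and the difference of means was -0.02 (SE 0.241, 95% interval -0.55 to 0.51). No test of the spread was made. Sufficient animal 4 was the lowest of its diet on both of its arrays, at 839 for 2 µg and 1493 for 10 µg. The interval leaves room for a change of about the size seen for Sult1a1 in either direction.

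Sult1e1, the estrogen sulfotransferase, was lower on average in deficient animals on both probe sets, with animals that overlapped between the diets. S76489_s_at read 4211, 6161, 3601 and 5056 in deficient animals, against 6034, 5740, 4788 and 5348 in sufficient animals, a difference of -0.23 (SE 0.158, 95% interval -0.57 to 0.12). M86758_at read 2107, 2113, 1391 and 1603 in deficient animals, against 2234, 2141, 2206 and 1884 in sufficient animals, a difference of -0.25 (SE 0.148, 95% interval -0.57 to 0.08). Deficient animal 3 was the lowest on both. Sult1e1 and Sult1b1 are close neighbours on chromosome 14, separated by Sult1d1, whose probe set (U32372_at) was too dim to be tested.

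**Figure D3:**
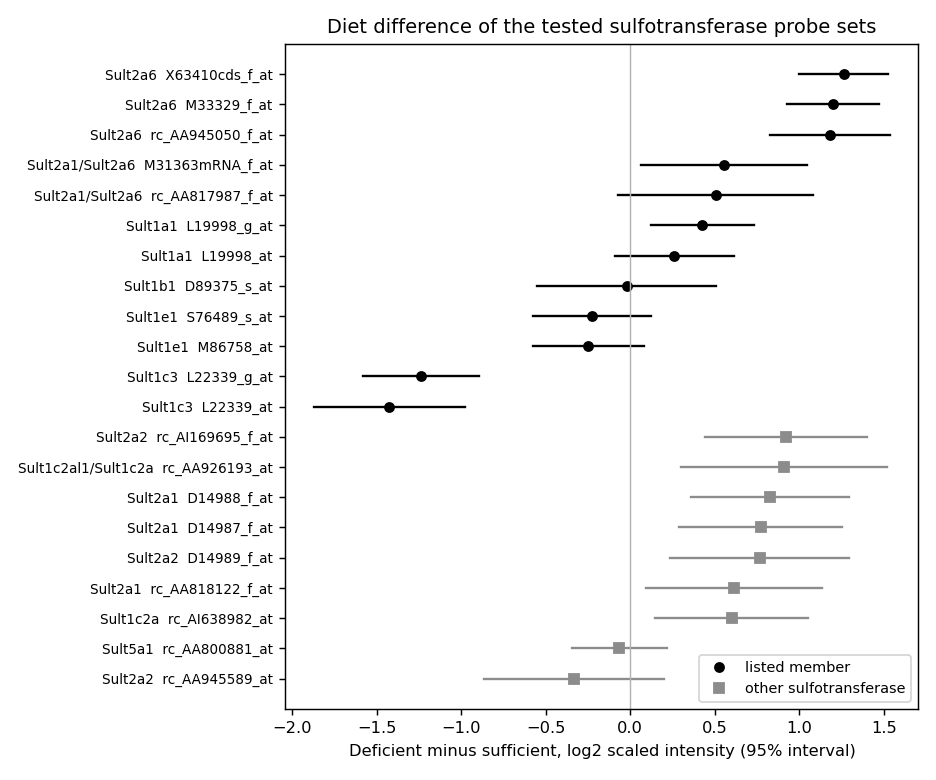
Deficient minus sufficient difference (log2) with its 95% interval for the 12 tested member probe sets (black) and 9 tested probe sets of other cytosolic sulfotransferases (grey squares). The 3 Sult2a6 probe sets lie between 1.18 and 1.26, the 2 Sult1c3 probe sets at -1.24 and -1.43, and the intervals of Sult1b1 and Sult1e1 include 0.

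Among all 5244 tested probe sets 90 (1.72%) were called by diet, 38 (0.725%) higher and 52 (0.992%) lower in deficient animals. Of the 12 tested member probe sets 5 were called, the 3 of Sult2a6 higher and the 2 of Sult1c3 lower. The same 5 had animals that did not overlap between the diets, as did 467 of all tested probe sets (8.91%). These counts describe genes that were selected on this contrast, and nothing is read from their excess over the background. In the fit with the random replicate block 250 probe sets (4.77%) were called, 6 of them members, the sixth being L19998_g_at of Sult1a1.

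The amount of RNA was a contrast that the choice of genes had not used, and it could be tested. Over both diets the 12 probe sets differed by -0.06 to 0.16 (2 µg minus 10 µg, log2; SE 0.099 to 0.237), 8 of them being higher at 2 µg. None passed (limma adjusted p = 0.876 to 0.997), 0 had an unadjusted p under 0.05, and among all probe sets 0 (0%) were called and 328 had an unadjusted p under 0.05. With each diet and number as a replicate block 2 probe sets of the whole array were called by amount and 0 of the 12.

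The diet difference of a sulfotransferase did not depend detectably on the amount of RNA. For Sult1c3 (L22339_g_at) it was -1.33 (SE 0.137) in the 2 µg arrays and -1.19 (SE 0.176) in the 10 µg arrays. For Sult2a6 (X63410cds_f_at) it was 1.23 (SE 0.161) at 2 µg and 1.31 (SE 0.110) at 10 µg. The interaction of diet and amount ran from -0.53 (SE 0.375, L22339_at) to 0.33 (SE 0.473, Sult1b1) over the 12 probe sets, 0 of which passed (limma adjusted p = 0.9995 for each) or had an unadjusted p under 0.05. Among all probe sets 0 (0%) were called by the interaction and 96 had an unadjusted p under 0.05. Standard errors of 0.197 to 0.473 limit what this fit, which did not pair the arrays, could show. With each diet and number as a replicate block, the interaction was -0.13 (SE 0.114) for X63410cds_f_at and -0.60 (SE 0.330) for L22339_at. In that fit 0 of the 12 were called. Within the 6 pairs of arrays of 1 diet and number, the gap between the amounts was under 0.5 log2 units in 68 of 72 comparisons, with a median of 0.16 and a largest value of 0.82.

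**Figure D4:**
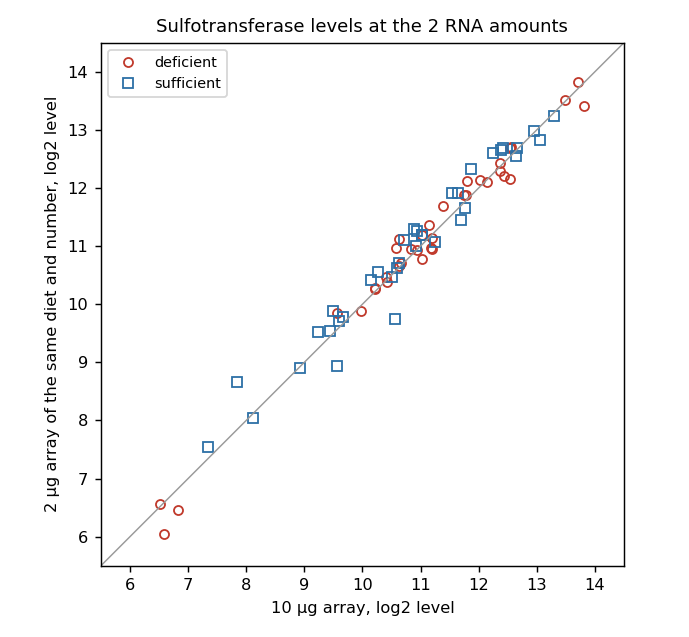
Log2 level of the 12 tested member probe sets on the 2 µg array against the 10 µg array of the same diet and number, for 3 deficient (circles) and 3 sufficient (squares) pairs. Points lie near the line of equal values, with a median gap of 0.16 and a largest gap of 0.82 log2 units.

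The 53 tested genes of 9 lists that surround these enzymes showed no change that passed, with 0 called in limma. Of the 53, 15 had an unadjusted p under 0.05, a larger share than the 758 of all 5244 tested probe sets. The lists were chosen with earlier results known and include Sult2a1 and Sult2a2, so nothing is read from that share. With the random replicate block 6 passed, where 4.77% of all probe sets did, Sult2a1, Sult2a2 and 4 genes described below. The list of sulfate activation and transport had 5 tested members with a median difference of -0.29, all 5 negative, against a median of 0.04 over all tested probe sets. Papss2, the PAPS synthase that predominates in liver, read 888, 1082, 1193 and 1456 in deficient animals, against 1310, 1574, 1436 and 1536 in sufficient animals, a difference of -0.36 (SE 0.150, limma adjusted p = 0.308). Papss1 differed by -0.06 (SE 0.133, adjusted p = 0.904 in limma). The sulfate transporters Slc26a1 and Slc26a2 differed by -0.29 and -0.31, and Bpnt1, which removes the spent donor, by -0.09.

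The list of other cytosolic sulfotransferases had 4 tested genes and a median of 0.71, of which Sult2a1 and Sult2a2 are given above. Sult1c2a (rc_AI638982_at) differed by 0.60 (limma adjusted p = 0.204) and Sult5a1 by -0.06 (limma adjusted p = 0.894). A probe set shared by Sult1c2al1 and Sult1c2a (rc_AA926193_at) read 567, 777, 670 and 646 in deficient animals, against 561, 218, 488 and 232 in sufficient animals. Its difference of 0.91 (SE 0.278) did not pass in limma (adjusted p = 0.149) and passed with the block at 0.95 (adjusted p = 0.0370). Sult1c2al1 is the neighbour of Sult1c3 on chromosome 9, and which of the 2 annotated genes gave this signal cannot be told apart.

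Among 8 tested genes of sulfate supply from cysteine the median was 0.07. Cth, which releases cysteine from cystathionine, differed by 0.89 (SE 0.206, limma adjusted p = 0.0607) and passed with the block at 0.94 (adjusted p = 0.00308). Csad, an enzyme on the way from cysteine to taurine, differed by -0.69 (SE 0.178, limma adjusted p = 0.0863) and passed with the block at -0.69 (adjusted p = 0.0114). The 2 values lie on opposite sides of 0, and 5 of the 8 genes had positive values.

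Other conjugating and hormone-handling genes gave list medians of -0.23 to 0.13. The 6 tested glucuronidation genes had a median of 0.13, and Ugdh, which makes the donor for glucuronidation, read 2715, 3130, 2601 and 2839 in deficient animals, against 2794, 2119, 2715 and 2729 in sufficient animals (difference 0.13, SE 0.120, limma adjusted p = 0.709). The medians were -0.23 over 5 genes of other conjugation, -0.00 over 10 of steroid and thyroid hormone metabolism, -0.05 over 4 Golgi sulfotransferases and -0.02 over 2 sulfatases. Ephx1, the microsomal epoxide hydrolase, differed by -0.51 (SE 0.114, limma adjusted p = 0.0502) and passed with the block at -0.48 (adjusted p = 0.0179). Dio1, a deiodinase that activates thyroid hormone, differed by -0.70 (SE 0.159, limma adjusted p = 0.0563) and passed with the block at -0.69 (adjusted p = 0.0136). Among 9 nuclear receptors known to act on sulfotransferase genes the median was 0.11, and Nr1h4, the bile acid receptor FXR, differed by -0.45 (SE 0.144, limma adjusted p = 0.167).

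**Figure D5:**
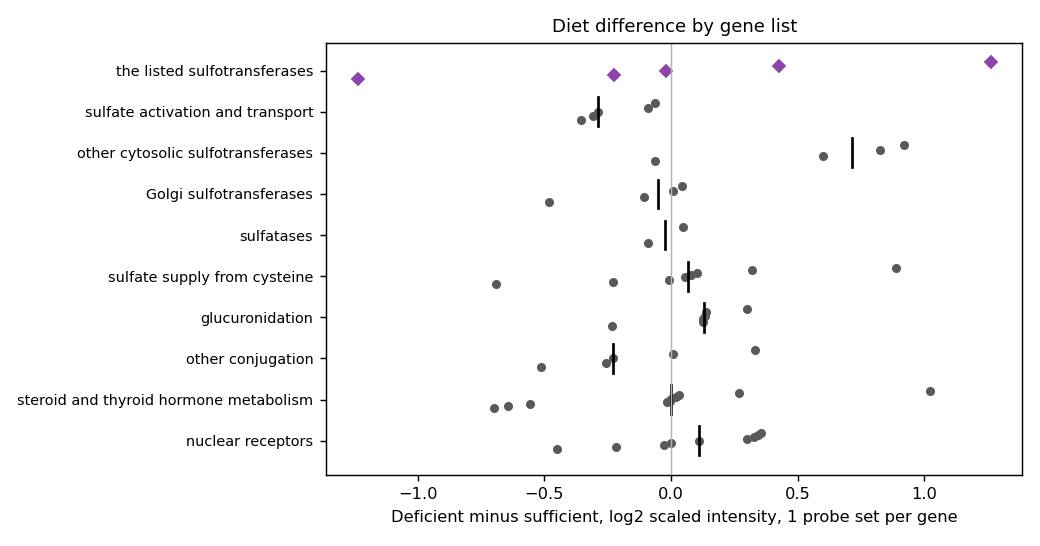
Deficient minus sufficient difference (log2) of each tested gene in the 9 surrounding lists, 1 probe set per gene, with the list's median as a bar, and of the 5 sulfotransferase genes (diamonds). List medians run from -0.29 for sulfate activation and transport to 0.71 for the other cytosolic sulfotransferases, and Sult2a6 and Sult1c3 lie at 1.26 and -1.24.

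Some markers of other cells moved with the diet, and their part in the sulfotransferase values was not tested. In the limma fit by diet, 4 of 6 tested erythroid markers fell in deficient livers (Hbb, Hbb-b1, Hba-a3 and Alas2) and 0 rose, with a summed scaled intensity of 3834 to 6518 in deficient and 12276 to 15237 in sufficient animals. Of 7 tested macrophage markers Lgals3 rose, with sums of 8109 to 11115 in deficient and 5337 to 7466 in sufficient animals. Of 9 tested stellate cell markers Vim rose, but the list was mixed, with 4 of the 9 differences positive and a median of -0.08. Of 4 endothelial markers Lyve1 fell, and 1 of the 4 differences was positive. The endothelial sums were 520 to 632 in deficient and 767 to 942 in sufficient animals. The stellate sums overlapped, at 9223 to 14235 in deficient and 9641 to 13384 in sufficient animals. Of 4 cholangiocyte markers 0 passed, with sums of 449 to 626 in deficient and 399 to 434 in sufficient animals. With the random replicate block the macrophage marker Ctss also passed as higher, and the stellate marker Col1a1 and the endothelial marker Aqp1 as lower, in limma. No measured marker had a mean level of 0, and Csf1r, Des and Vwf were too dim to be tested but are included in the sums. Each sum adds probe sets whose levels are not comparable, so the brightest weigh most in it. The 3′ to 5′ signal ratio of the GAPDH control, a sign of RNA quality, differed by 0.06 on the log2 scale (exact permutation test, two-sided, p = 0.743, 4 against 4) and that of beta-actin by -0.10 (exact permutation p = 0.457).

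The probe sets most like Sult1c3 over the 8 animals, by the root mean square difference of centred log2 levels among 4329 candidates, were those of Acaa1b (0.220), a peroxisomal thiolase, Alas2 (0.230), the erythroid enzyme of heme synthesis, and Avpr1a (0.236), the vasopressin receptor of the liver. For Sult2a6 they were Eef2k (0.149), the kinase of elongation factor 2, Cd74 (0.184), the invariant chain of antigen-presenting cells, and Myadm (0.275). Levels were centred over both diets, so this distance includes the diet step on which Sult1c3 and Sult2a6 were chosen. The diet differences were -1.16 for Acaa1b, -1.23 for Alas2, -1.32 for Avpr1a, 1.09 for Eef2k, 1.19 for Cd74 and 0.92 for Myadm. Likeness between animals within a diet was not tested.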

How the data were processed

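Total RNA of rat liver, purified on columns per the labels' protocols, was hybridised to 14 Affymetrix arrays. The deposited values are a linear intensity per probe set and array, in 1 table of the whole series. Which program and normalization made them is not given in the sources used here. In the deposited table each array's trimmed mean, with 2% off each end, was 1001.9 to 1002.1, and the median intensity 175.1 to 230.95. Detection calls were not used. Precision is limited by the number of arrays. All 14 columns matched a label by title.

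Of 8799 probe sets 59 controls were left out, leaving 8740, of which 7017 had 1 symbol in the platform annotation, 297 several and 1426 none listed. Arrays were rescaled to a trimmed mean of 500 and taken as log2(intensity + 16). The 5244 probe sets with a mean of at least 6.20 were tested. Scaling followed by averaging, and limma 3.58.1 (lmFit and eBayes with a trend, in R 4.3.3), gave the diet difference. The amount difference and interaction used the 14 arrays. Tests were two-sided, with a Benjamini-Hochberg adjusted p of 0.05 as the threshold. The fits were tested on simulated arrays. Other settings tried were scaling to a common median, quantile normalization, a pseudocount of 1 or 64, no filter or the 60th percentile, no trend, each amount alone, no removal of the amount shift, replicate blocks, and leaving out each animal.

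Deviations from the group means correlated at 0.202 to 0.351 between the 2 µg and the 10 µg array of 1 diet and number (6 pairs), and at -0.254 to 0.124 between arrays of different numbers (18 pairs). The pairing comes from these data and the shared number, and the blocked value stands beside each result it changes.

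The member genes and gene lists were chosen with earlier results of these data known. The naming rule took all member probe sets, list genes that passed by diet, Papss1, Papss2 and Ugdh, the 3 probe sets most like Sult1c3 and Sult2a6, and the brightest probe set of a gene with several. Sult2a1, Sult2a2, the Sult1c2a probe sets, Sult5a1, Slc26a1, Slc26a2, Bpnt1, Cth, Csad, Ephx1, Dio1, Nr1h4 and the cell markers were named after their values were seen. Promoters came from the RefSeq table of GRCr8, in which all 5 members matched by identifier. The files name no genome build.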

Additional observations from a re-analysis of the deposited data

Results flagged for a closer look

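Of 58 groups of 4 animals checked, 3 had 1 animal far from the others, where about 5 in 100 are flagged by chance alone. The first was Sult2a6 (rc_AA945050_f_at), where deficient animal 1 read 1370 and the highest deficient animal 1941, with a gap to the nearest animal of 0.912 of the group's log2 range. In Ugdh (AB013732_at), sufficient animal 2 was low at 2119, against 2794 in the highest sufficient animal, with a ratio of 0.897. In Ephx1 (M26125_at), sufficient animal 3 was high at 9478, against 7083 in the lowest sufficient animal, with a ratio of 0.83. No cause was tested for any of them.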

How the results depend on the processing

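The number of probe sets called by diet was 90. It was 33 with the 2 µg arrays alone and 250 in the fit with the random replicate block. Leaving out 1 animal gave 48 to 94, with 48 without deficient animal 4 and 59 without sufficient animal 3. For the amount difference 0 were called, 2 with diet and number as a replicate block, and 0 to 2 when 1 animal was left out (2 without sufficient animal 1, 1 without sufficient animal 3). The cause was not tested. The interaction gave 0 calls under each alternative.

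Of 939 values of single probe sets under alternatives, 888 kept their sign and side of the threshold, 23 newly passed, 1 no longer passed and 27 changed sign, 0 of the last being called. Member calls ran from 4 to 6. They were 4 with the 2 µg arrays alone, where Sult2a6 (rc_AA945050_f_at) was not called, and with the 60th percentile filter, which leaves Sult1c3 (L22339_at) untested. They were 6 with the random replicate block, which adds Sult1a1 (L19998_g_at), and without sufficient animal 4, which adds M31363mRNA_f_at. Sult1c3 (L22339_at) moved to -1.09 with a pseudocount of 64.

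Sign changes outside the leave-one-out fits were the following. The diet difference of Sult5a1 was 0.066 with the 10 µg arrays alone, and with the 2 µg arrays alone that of Papss1 was 0.023 and that of Sult1b1 0.14. The amount difference was 0.015 for Sult1c3 (L22339_at) and 0.0074 for Sult2a6 (rc_AA945050_f_at) with diet and number as a replicate block. The interaction of Sult1a1 (L19998_at) was -0.011 with quantile normalization and -0.19 with the replicate block. When 1 animal was left out, the diet difference ran from -0.11 to 0.026 for Papss1 and from -0.28 to 0.20 for Sult1b1. The amount difference ran from -0.15 to 0.17 for Sult1b1, -0.21 to 0.00053 for Sult1c3 (L22339_at), -0.092 to 0.056 for Sult1a1 (L19998_g_at), -0.033 to 0.14 for rc_AA817987_f_at and -0.16 to 0.087 for rc_AA945050_f_at. The interaction ran from -0.087 to 0.13 for L19998_at, -0.26 to 0.063 for S76489_s_at, -0.055 to 0.58 for Sult1b1, -0.29 to 0.050 for rc_AA817987_f_at and -0.16 to 0.34 for rc_AA945050_f_at.

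With the number as a replicate block across the diets, 78 probe sets were called and Sult2a1 (D14987_f_at) and Dio1 passed (adjusted p = 0.0244 and 0.0498 in limma). Same-numbered animals of the 2 diets correlated at -0.0763 to 0.0672, so no pairing by number across diets was seen. With only 4 such correlations a weak pairing could be missed. Among genes that did not pass, Ephx1 passed with median scaling (adjusted p = 0.0343), the 60th percentile filter, no removal of the amount shift or without deficient animal 1, Dio1 with median scaling or the 60th percentile filter, Csad without deficient animal 2, and Cth without sufficient animal 1 or sufficient animal 4. The blocked fits changed no call beyond those given here and beside the results. Signal near the background limits Sult1d1, rc_AI028836_at and the dimmer Sult2a1 probe set J02643_at, which were not tested.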
